A study of Oryctolagus cuniculus with 12 samples.

Results

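Expression of TLX1 and of a group of mesenchymal fate transcription factors was described in rabbit ear skin, untreated scar and treated scar. The group held 10 listed genes. TLX1 and RUNX2 were selected on their change in these same samples, and the other 8 genes (RUNX1, TWIST1, TWIST2, PRRX1, PRRX2, SCX, SOX4 and SNAI2) for their role in fibroblasts. A gene was taken where its symbol stood in the gene name field of the deposited table, which gave 6 members of 29587 genes: TLX1, RUNX1, RUNX2, TWIST2, PRRX1 and PRRX2, each with a single row. TWIST1, SCX, SOX4 and SNAI2 had no row by symbol and were not analysed here by symbol. Because TLX1 and RUNX2 were picked from the values, their levels are given as a description, with no test.

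The study asked how RNA in a hypertrophic scar (HS), a raised scar with excess collagen, changed under a microneedle patch that carried a 5-fluorouracil prodrug. Bulk RNA-seq was run on 12 samples of the full thickness of the ear from wild-type female rabbits (Oryctolagus cuniculus, 10 to 12 weeks old at purchase), 3 in each of 4 groups, with tissue taken on day 43. Each group had 3 rabbits, and those of the 3 scar groups had several lesions each. The sources used here do not tie a sample to a rabbit, so p-values measure the spread between these samples. Normal skin (NS) came from the ears of rabbits without wounds, and HS was scar left without treatment. Scars of the drug-loaded MNs group (MN group) received 1 microneedle patch each, and scars of the 5-Fu injection group (5-Fu group) 120 μg of 5-Fu in 0.1 mL, both on days 22, 29 and 36 after the skin was resected. The scars grew from round wounds on the ventral face of the ear, and the tissue taken also held cartilage and the dorsal skin, so each value is an average over all these layers. Both treated groups and HS had been wounded, and NS had not, so wounding and scarring cannot be told apart in a comparison with NS. No group with a drug-free patch was analysed here, so the patch and its drug cannot be told apart either.

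All 6 genes encode proteins that bind DNA and switch other genes on or off. TLX1, PRRX1 and PRRX2 carry a homeodomain, RUNX1 and RUNX2 a Runt domain and TWIST2 a basic helix-loop-helix domain. TLX1 is known for its need in the development of the spleen and as an oncogene in T cell leukaemia. RUNX2 is the master factor of bone-forming cells, and RUNX1 is best known from blood stem cells. PRRX1 and PRRX2 are paired-related factors of limb and craniofacial mesenchyme, and PRRX1 marks fibroblasts that take part in scarring. TWIST2 is a dermal fibroblast factor that restrains differentiation of mesenchymal cells.

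Each sample held 10521472 to 14043667 reads on genes, and a single read on 1 kilobase of gene was worth an FPKM of 0.0768 to 0.0972. All 6 members passed the filter on low values. The tissue labels were checked against marker genes. Of 9 fibroblast markers 8 were in the table, with a summed FPKM of 2509 to 3499 in NS, 37513 to 48901 in HS and 19028 to 27317 in the MN group. Most of the sum came from COL1A1, COL1A2 and COL3A1, with HS means of 15711, 14066 and 8262 FPKM. Means of the others in NS and HS were 87.4 and 173 for PDGFRB, 537 and 1648 for DCN and 14.5 and 37.2 for FAP. They were 31.5 and 65.6 for DPT and 150 and 3331 for LUM. The 5-Fu group was split, with fibroblast sums of 5127 and 6808 in replicates 1 and 3 and 26877 in replicate 2, so the differences of the members and the calls in the lists are also given without replicate 2. Of 9 keratinocyte markers 6 were in the table, and their sums were 2132 to 3690 in NS, 1307 to 1885 in HS, 3626 to 8504 in MN and 2741 to 5333 in 5-Fu samples. Cartilage markers, 7 of 9 in the table, were spread within groups, from 453 in HS replicate 1 to 4673 in HS replicate 3, from 835 to 4747 in the MN group, and from 462 in the second 5-Fu sample to 5394 in the first. NS replicate 3 stood apart in the skeletal muscle sum, at 553 against 109 and 149 in the other NS samples, and in the myofibroblast sum, at 868 against 204 and 214. The skeletal muscle sum was carried largely by DES, which ran from 41.2 to 479 FPKM. No other gene of that list exceeded 44.2 in a sample, and MYH1 reached at most 0.0277. NS replicate 2 stood apart in the macrophage sum, at 243 against 93.2 and 96.5, and in the leukocyte and T cell sum, at 35.8 against 10.6 and 7.93. The first 5-Fu sample had a leukocyte and T cell sum of 92.6, against 24.1 and 15.7 in the others of its group. None of these fibroblast or keratinocyte markers was at 0 in a sample, and the muscle factors MYOD1 and MYF5 were at 0 in all 12. In bulk tissue, fewer cells of a type and less RNA per cell cannot be told apart.

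Levels were compared between genes per length, as FPKM. Over the 12 samples the mean was 87.2 for PRRX1, 47.4 for PRRX2, 23.7 for TWIST2, 20.5 for RUNX1, 16.2 for TLX1 and 3.67 for RUNX2. PRRX1 exceeded PRRX2, PRRX2 exceeded TWIST2, and TLX1 exceeded RUNX2 in 12 of 12 samples each. The middle of the order was not settled, since TWIST2 exceeded RUNX1 in 8 samples and RUNX1 exceeded TLX1 in 7. RUNX2 rested on 15 to 123 reads per sample and TLX1 on 75 to 340, so the counting error alone (the Poisson SD) was 25.8% of the value for the shallowest RUNX2 sample and 11.5% for the shallowest TLX1 sample. PRRX1 had 529 to 1764 reads, with a counting error of at most 4.35%. The gene model of TWIST2 is 483 bases long, equal to its whole span and a multiple of 3, so its level against other genes depends on how much of its transcript the annotation holds.

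**Figure D1:**
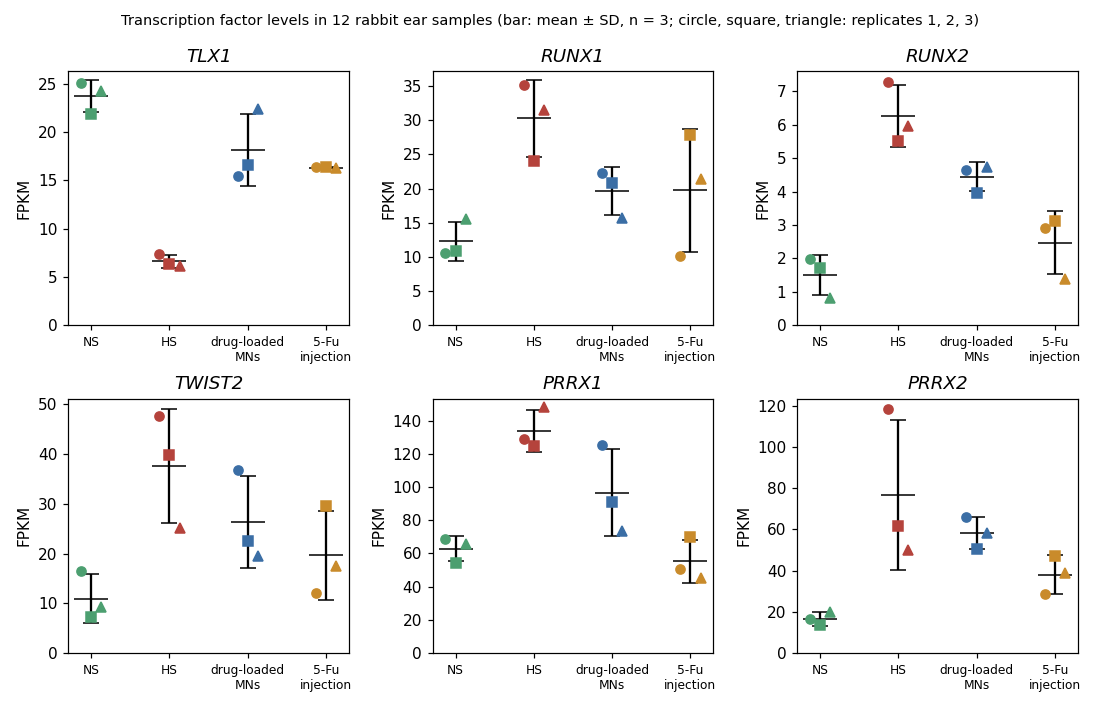
FPKM (vertical axis, from 0) of the 6 members in each of the 12 samples, by group. Points are replicates 1 to 3 and bars are the mean ± SD of 3 samples. TLX1 was lowest in HS, at 6.17 to 7.36, where the means of the 5 other genes were highest.

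TLX1 was the single member with a lower mean in untreated scar (HS) than in normal skin. The gene (ENSOCUG00000013136) is listed on chromosome 18 from 49216354 to 49221362 on the plus strand, in a genome build not given in the sources used here. Its FPKM was 25.1, 21.9 and 24.3 in NS and 7.36, 6.32 and 6.17 in HS. It was 15.5, 16.6 and 22.4 in the MN group and 16.4, 16.4 and 16.3 in the 5-Fu group. All 3 HS samples lay below every other sample, and the NS and MN groups overlapped through the 22.4 of the third patch sample. The means were 23.8 ± 1.63 in NS, 6.62 ± 0.647 in HS, 18.2 ± 3.70 in the MN group and 16.3 ± 0.0786 in the 5-Fu group (SD, n = 3).

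As a description, the HS mean of TLX1 was 0.278 times the NS mean, the MN mean was 2.74 times the HS mean and the 5-Fu mean was 2.47 times the HS mean. On the log2(FPKM + 1) scale, which understates changes of low genes, these differences were -1.70, 1.32 and 1.19. Among the 13287 genes tested, those whose mean FPKM reached 1, they lay at percentiles 1.00, 98.8 and 97.5. TLX1 was picked on its change, so extreme ranks were built in and do not measure how unusual the gene is. The MN and 5-Fu groups overlapped, with a log2 difference of 0.13. Neither treated mean was at the NS mean, the difference from NS being -0.39 for the MN group, whose samples overlapped NS, and -0.51 for the 5-Fu group, whose samples did not. The comparisons with HS share the same 3 HS samples, so the treated values and the NS values are not independent contrasts. Without the second 5-Fu sample the difference from HS was 1.19 again, and that from NS was -0.51.

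RUNX2 was highest in HS and lowest in NS. The gene (ENSOCUG00000011739) is listed on chromosome 12 from 34676050 to 34810334 on the plus strand. Its FPKM was 1.97, 1.72 and 0.818 in NS and 7.29, 5.52 and 5.95 in HS. It was 4.64, 3.97 and 4.75 in the MN group and 2.92, 3.11 and 1.38 in the 5-Fu group. The groups stood in the order HS, MN, then 5-Fu and NS, and the last pair alone overlapped. The HS mean of 6.25 ± 0.923 was 4.16 times the NS mean of 1.50 ± 0.606 (SD, n = 3). The MN mean of 4.45 ± 0.423 was 0.711 times the HS mean, and the 5-Fu mean of 2.47 ± 0.950 was 0.395 times the HS mean.

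On the log2(FPKM + 1) scale RUNX2 differed by 1.56 between HS and NS, by -0.41 between MN and HS and by -1.10 between 5-Fu and HS. The MN group was higher than the 5-Fu group by 0.69 and higher than NS by 1.15. The 5-Fu group differed from NS by 0.46. Without the second 5-Fu sample the difference from HS was -1.24, that from NS was 0.32, and that between MN and 5-Fu was 0.83. The SD was 14.8% of the mean in HS and 9.51% in the MN group, but 40.3% in NS, which holds the sample with 15 reads, and 38.5% in the 5-Fu group.

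Of the 4 members picked for their role, all 4 were called higher in HS than in NS. A gene was called where its log2 fold change exceeded 1 in size and its adjusted p lay below 0.05, in limma with Benjamini-Hochberg adjustment over the 13287 genes. By this rule 5.00% of all tested genes were called in this comparison, and the groups of 33.3% did not overlap, as against 4 of 4 here. The members were listed with earlier results of these data known. Their median log2 fold change was 1.48 and that of all tested genes was -0.01. With every sample scaled to the same total of reads, 311 genes were called higher and 748 lower in place of 469 and 196, and 2 of the 4 members were called, with all 4 still above 0. Fibroblast markers moved the same way, 6 of 8 tested being called higher in HS and 0 lower, and their part in these results was not tested.

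PRRX2 had the largest difference of the 4. The gene (ENSOCUG00000001724) is listed on the scaffold GL018933 from 374316 to 376708 on the minus strand, where its end overlaps a gene without a symbol on the same strand, so reads could have been shared between them. The overlapping gene had mean FPKM of 38.6, 50.2, 38.6 and 40.8 in NS, HS, MN and 5-Fu. PRRX2 was at 16.5, 13.4 and 20.0 in NS and at 118.1, 61.7 and 50.1 in HS. It was at 65.9, 50.6 and 58.2 in the MN group and at 28.5, 47.0 and 38.6 in the 5-Fu group. Every scar sample, treated or not, lay above all 3 NS samples, and the first HS sample stood well above the rest. PRRX2 rose in HS against NS by 2.06 on the log2 scale (SE 0.29, adjusted p = 0.00287, limma), a ratio of means of 4.61. The MN group was also above NS, by 1.76 (SE 0.29, adjusted p = 0.0240), a ratio of 3.50. That second call was lost without any single one of the 3 MN samples, at adjusted p of 0.111, 0.0591 and 0.0970 in turn, and without NS replicate 1 or 2, at 0.0849 and 0.0952. Under a replicate block the adjusted p was 0.0621.

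PRRX1, its paralog, was at 68.5, 54.6 and 65.8 FPKM in NS and at 128.9, 124.6 and 148.1 in HS. The gene (ENSOCUG00000012272) is listed on chromosome 13 from 22829234 to 22911022 on the plus strand. The MN samples were spread from 125.1 over 91.3 to 73.8, and the 5-Fu samples were at 50.8, 69.8 and 45.0. The 5-Fu samples overlapped NS, and the MN samples lay above NS, the first of them inside the range of HS. PRRX1 rose in HS against NS by 1.08 (SE 0.21, adjusted p = 0.0122, limma), with means of 134 ± 12.5 and 63.0 ± 7.42 (SD, n = 3). This sits close to the fold threshold, and the call was lost without NS replicate 2, where the log2 fold change was 0.98, and without HS replicate 3, at an adjusted p of 0.0504. With every sample scaled to the same total of reads it was 0.72, where the median of all genes moved to -0.33.

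PRRX1 was also the one role member called between a treated group and HS. It fell in the 5-Fu group against HS by 1.28 (SE 0.21, adjusted p = 0.0221, limma), a ratio of means of 0.412. In this comparison 2.29% of all tested genes were called, and 1 of the 4 role members was. Fibroblast markers moved the same way, 3 of 8 tested being called lower (COL1A1, COL3A1 and LUM) and 0 higher, and their part was not tested. All 3 marker calls were lost without any single HS sample and without 5-Fu replicate 1 or 3, at adjusted p up to 0.147. They were also lost under a replicate block and with only the 2 groups fitted. Without the second 5-Fu sample the log2 fold change of PRRX1 was -1.46, at an adjusted p of 0.00518. That sample was left out for its fibroblast sum and had the highest PRRX1 of its group. A larger fall without it was therefore built in and does not strengthen the call. The PRRX1 call was lost without HS replicate 1, 2 or 3, at 0.0623, 0.0559 and 0.0863. It was also lost without 5-Fu replicate 1 or 3, at 0.0640 and 0.0890, and at 0.0967 when only the 2 groups were fitted. Against NS the 5-Fu group differed in PRRX1 by -0.20 (95% interval -0.67 to 0.26, adjusted p = 0.663).

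TWIST2 was at 16.4, 7.16 and 9.35 FPKM in NS and at 47.7, 39.9 and 25.2 in HS. The gene (ENSOCUG00000004073) is listed on GL019015 from 292651 to 293133 on the minus strand. It was at 36.9, 22.6 and 19.6 in the MN group and at 12.1, 29.6 and 17.5 in the 5-Fu group. Each of the 2 treated groups overlapped HS, and the MN samples all lay above NS. TWIST2 rose in HS against NS by 1.72 (SE 0.38, adjusted p = 0.0214, limma), with means of 37.6 ± 11.5 and 11.0 ± 4.83 (SD, n = 3). The call was lost without NS replicate 2 or 3, at 0.0726 and 0.0543, and without HS replicate 1 or 2, at 0.0840 and 0.0702.

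RUNX1 was at 10.5, 10.8 and 15.5 FPKM in NS and at 35.2, 24.1 and 31.5 in HS. The gene (ENSOCUG00000013731) is listed on GL018729 from 1552114 to 1799474 on the minus strand. The MN samples were at 22.3, 20.9 and 15.7, all between the NS and HS ranges, while the 5-Fu samples ran from 10.1 to 27.8 with 21.5 between. RUNX1 rose in HS against NS by 1.24 (SE 0.31, adjusted p = 0.0365, limma), with means of 30.3 ± 5.65 and 12.3 ± 2.79 (SD, n = 3). PRRX1 had a smaller log2 fold change, but this call had the highest adjusted p of the 4. It was lost without NS replicate 1 or 2, at 0.128 and 0.102, without HS replicate 1, 2 or 3, at 0.121, 0.0593 and 0.104, and without MN replicate 2, at 0.0541. It was also lost with no filter on low values, at 0.0642, and with samples scaled to the same total of reads, at 0.0647 with a log2 fold change of 0.90. Under a replicate block it was 0.0650.

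**Figure D2:**
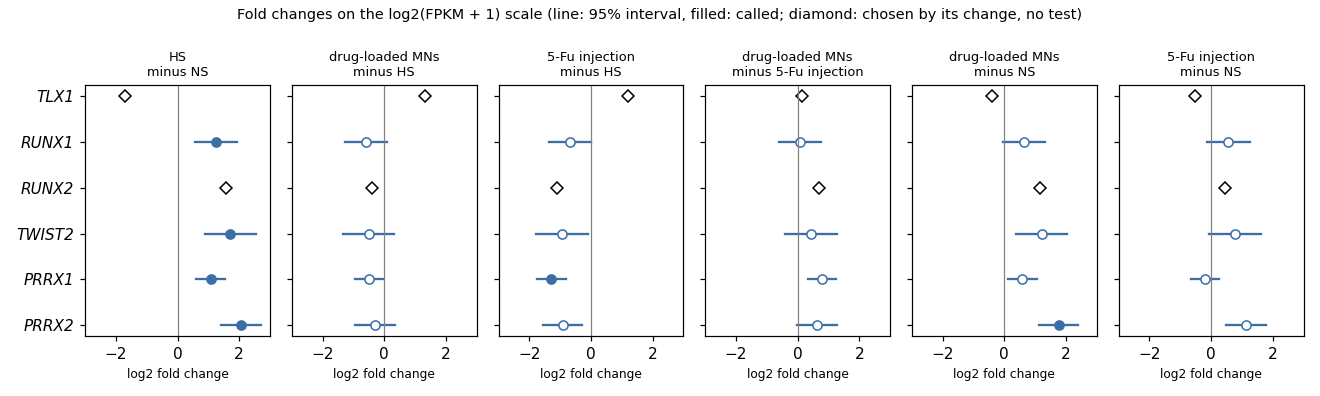
Log2 fold changes of the 6 members on the log2(FPKM + 1) scale in 6 comparisons (horizontal axis). Lines are 95% intervals, filled circles were called, and diamonds mark TLX1 and RUNX2, which were selected on their change and have no test. The 4 filled circles of HS minus NS lie between 1.08 and 2.06.

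None of the 4 role members was called between MN and HS, where 0.00753% of all tested genes were called, and 1 of the 4 had an unadjusted p under 0.05 in limma. The share of all tested genes under that unadjusted cut is not given, here or below, so such counts have no background. The log2 differences were -0.60 for RUNX1 (adjusted p = 0.613), -0.50 for TWIST2 (0.755), -0.49 for PRRX1 (0.534) and -0.30 for PRRX2 (0.817). RUNX1 alone of the 4 had groups that did not overlap, against 18.9% of all tested genes. limma voom on the reads counted back also called 0 of the 4.

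Between 5-Fu and HS the 3 role members that were not called had differences of -0.68 for RUNX1 (95% interval -1.37 to 0.01, adjusted p = 0.196), -0.94 for TWIST2 (0.150) and -0.92 for PRRX2 (0.0870). Groups did not overlap for PRRX1 and PRRX2, against 30.3% of all tested genes. Without the second 5-Fu sample, whose levels of these genes were the highest of its group, the differences were -0.97 for RUNX1, -1.26 for TWIST2 and -1.08 for PRRX2, at adjusted p of 0.0664, 0.0593 and 0.0571. Larger falls without that sample were therefore built in. It also had the highest sum of fibroblast markers in its group, and the part of these markers was not tested.

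The treated groups were compared directly. None of the 4 was called between MN and 5-Fu, where 0% of all tested genes were called, and 1 had an unadjusted p under 0.05. The MN group had the higher mean log2 value for each of the 4, by 0.79 for PRRX1 (adjusted p = 0.250), 0.62 for PRRX2 (0.345), 0.44 for TWIST2 (0.600) and 0.08 for RUNX1 (0.917). The direction for RUNX1 was not settled, at -0.01 without MN replicate 1 and -0.32 without 5-Fu replicate 1. Its mean FPKM was 19.6 in the MN group and 19.8 in the 5-Fu group. PRRX1 and PRRX2 did not overlap between these groups, against 17.1% of all tested genes. limma voom called 0 of the 4 here. Without the second 5-Fu sample the differences were 0.97 for PRRX1 (adjusted p = 0.107), 0.78 for PRRX2, 0.76 for TWIST2 and 0.37 for RUNX1, none called.

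Treated scar was also set against NS. In the MN group 0.873% of all tested genes were called, and PRRX2 was the 1 role member among them. The others differed by 1.21 for TWIST2 (adjusted p = 0.189), 0.64 for RUNX1 (0.419) and 0.58 for PRRX1 (0.262), and all 4 had groups that did not overlap, against 20.6% of all tested genes. In the 5-Fu group 0.00753% of all tested genes were called and 0 of the 4, with 1 at an unadjusted p under 0.05 and 0 called by limma voom. The differences there were 1.14 for PRRX2 (0.166), 0.78 for TWIST2 (0.359) and 0.56 for RUNX1 (0.410). PRRX2 alone did not overlap, against 18.8%. Without the second 5-Fu sample these were 0.97, 0.45 and 0.27, and that of PRRX1 was -0.38, none called.

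Ratios within a sample do not depend on the scaling between samples. PRRX2 over PRRX1 was 0.241 to 0.304 in NS and 0.338 to 0.917 in HS, with means of 0.623 ± 0.143 in the MN group and 0.698 ± 0.149 in the 5-Fu group (SD, n = 3). All 9 scar samples lay above the 3 NS samples, and the HS samples were the most spread. RUNX2 over RUNX1 had means of 0.133 in NS, 0.208 in HS, 0.234 in the MN group and 0.155 in the 5-Fu group. The highest NS sample, at 0.187, lay just below the lowest HS and MN samples, at 0.189 and 0.190, and the 5-Fu samples overlapped all other groups. The 5-Fu mean without its replicate 2 was 0.177 for this ratio and 0.709 for PRRX2 over PRRX1. TLX1 over PRRX1 was 0.379 ± 0.0201 in NS, 0.0498 ± 0.00775 in HS, 0.203 ± 0.0916 in the MN group and 0.306 ± 0.0647 in the 5-Fu group. TLX1 over RUNX2 had means of 18.4, 1.06, 4.08 and 7.56 in the same order of groups. The 5-Fu means of these ratios were 0.342 and 8.71 without its replicate 2. The ratios with TLX1 or RUNX2 carry the choice of these genes with them and are a description.

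**Figure D3:**
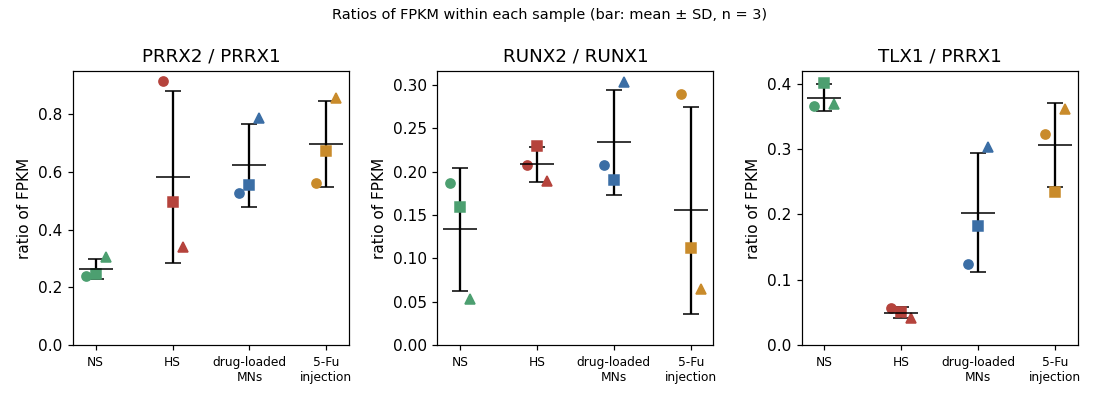
Ratio of FPKM between pairs of members in each sample (vertical axis, from 0, no unit), by group. Points are replicates 1 to 3 and bars are the mean ± SD of 3 samples. PRRX2 over PRRX1 was lowest in NS, at 0.241 to 0.304, and TLX1 over PRRX1 was lowest in HS, at a mean of 0.0498.

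Among the members, Pearson's r of log2(FPKM + 1) over the 12 samples was -0.75 to -0.67 between TLX1 and each other gene, and 0.61 to 0.90 among the other 5. The samples fall into 4 groups and share their scaling, so these values mostly restate the group means. After the group means were subtracted, TLX1 had r from -0.48 with PRRX1 to 0.35 with PRRX2, and TWIST2 kept 0.68 with PRRX2 and 0.61 with PRRX1. RUNX2 kept no r above 0.28 with another member.

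The levels were set beside the marker sums of the same samples, also over 12 samples. The fibroblast sum rested mostly on COL1A1, COL1A2 and COL3A1. It had r of 0.91 with TWIST2, 0.90 with PRRX2, 0.89 with RUNX2, 0.84 with RUNX1, 0.81 with PRRX1 and -0.77 with TLX1. After the group means were subtracted it kept 0.69 with TWIST2, 0.69 with PRRX1 and 0.63 with RUNX1, and was 0.32 with PRRX2, 0.29 with RUNX2 and -0.15 with TLX1. The keratinocyte sum had r of 0.73 with TLX1, and 0.82 after the group means were subtracted. Of the 6 keratinocyte markers tested, 1 was called lower in HS than in NS (KRT5, a basal layer keratin, by 1.34, adjusted p = 0.0420 in limma) and 0 higher. In that comparison 5.00% of all tested genes were called. The KRT5 call was lost without any single NS or HS sample, at adjusted p of 0.0841 to 0.128, and without MN replicate 2, at 0.0567. It was also lost with no filter on low values, at 0.0760. The Schwann cell markers, 6 of 6 in the table, had sums of 410 to 1001 in NS and 129 to 208 in HS, with r of 0.66 with TLX1, and 0.33 after the group means were subtracted. The keratinocyte sum was 1 of 13 marker sums compared. After the group means were subtracted, TLX1 also had r of 0.76 with the endothelial sum, 0.52 with bone, -0.69 with the melanocyte sum and -0.60 with the macrophage sum. The cartilage sum had r of -0.74 with PRRX2, -0.69 with TWIST2 and -0.69 with RUNX1. The skeletal muscle sum, carried largely by DES, had r of -0.86 with RUNX2. The B cell and lymphoid sum had -0.72 with TWIST2, -0.63 with PRRX1 and -0.61 with RUNX1. The myofibroblast sum had -0.73 with RUNX2 and 0.68 with RUNX1. RUNX1 ran from -0.72 with the Schwann cell sum to 0.75 with the adipocyte sum. The part of any of these cell types in the levels was not tested.

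**Figure D4:**
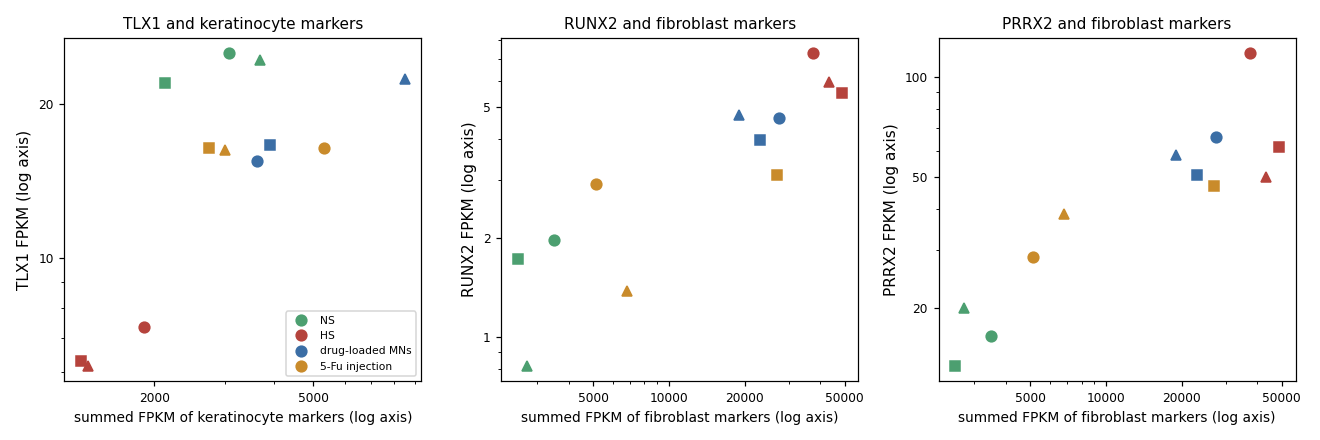
FPKM of TLX1 against the summed FPKM of 6 keratinocyte markers, and of RUNX2 and PRRX2 against that of 8 fibroblast markers, with 1 point per sample (all axes logarithmic). Circles, squares and triangles are replicates 1, 2 and 3. The 3 HS samples have the lowest keratinocyte sums, 1307 to 1885, and the highest fibroblast sums, and the second 5-Fu sample (square) lies among the MN samples on the fibroblast axis, at 26877.

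The genes whose pattern was most like that of TLX1 over the 12 samples, among 9449 tested genes with a symbol, were OVOL2 (r = 0.95), LARGE2 (0.94), WNT10A (0.94), EPHB6 (0.92) and GRB7 (0.92). After the group means were subtracted these became 0.10, 0.65, 0.48, 0.40 and 0.32. OVOL2, an epithelial transcription factor, had mean FPKM of 2.09 in NS, 0.298 in HS, 1.36 in the MN group and 1.25 in the 5-Fu group. WNT10A, a Wnt ligand of skin and its appendages, had 8.89, 2.28, 6.46 and 4.99. EPHB6, an ephrin receptor, had 40.0, 13.8, 29.8 and 27.3.

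The genes most like RUNX2 were TENM3 (r = 0.97), ADAM9 (0.96), CCBE1 (0.96), COL12A1 (0.95) and PDGFD (0.95). After the group means were subtracted they kept 0.80, 0.76, 0.78, 0.70 and 0.92. COL12A1, a collagen that coats the surface of fibrils, had mean FPKM of 32.9 in NS, 197.7 in HS, 100.03 in the MN group and 49.4 in the 5-Fu group. PDGFD, a platelet-derived growth factor, had 6.81, 38.8, 15.8 and 11.1. TENM3, a teneurin adhesion protein, had 2.80, 14.4, 9.98 and 5.49.

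The neighbours of TLX1 on chromosome 18 were described without a test. Of the 13 genes listed within 200 kb none overlapped TLX1. The nearest, SFXN3, 3994 bases away, had mean FPKM of 21.3 in NS, 26.0 in HS, 28.3 in the MN group and 28.9 in the 5-Fu group. KAZALD1 had 6.78, 11.9, 14.6 and 10.6. LZTS2 had 45.0, 44.7, 45.3 and 42.2. LBX1, another homeobox gene, had at most 0.0308 in a group mean.

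TLX1 was also set beside other homeobox genes, since it was the member lower in HS. The set was the 106 other genes that the deposited table annotates with a Homeobox domain, of which 29 were tested. It leaves out PRRX1 and PRRX2, which were called higher in HS, and homeodomain genes that the table annotates otherwise, among them MEIS1, also called higher. In HS against NS 1 was called lower and 0 higher, against 5.00% of all tested genes called, and the median log2 fold change was -0.13. The called gene was NKX6-1, by -2.36 (adjusted p = 0.0238, limma), with mean FPKM of 7.37 in NS and 0.561 in HS. It was lost without NS replicate 1 or 3, at 0.0928 and 0.0667, without HS replicate 1, 2 or 3, at 0.0883, 0.0646 and 0.0544, and under limma voom, at 0.0659. With samples scaled to the same total of reads the set had 4 called lower and 0 higher, with a median of -0.36. The count was 1 higher and 0 lower under limma voom, without NS replicate 3 and without HS replicate 2. It was 0 in both directions without NS replicate 1, HS replicate 1 or HS replicate 3. The groups of 12 of the 29 did not overlap, against 33.3% of all tested genes. In 5-Fu against HS 1 was called lower, against 2.29% of all tested genes called. This was ZFHX3, by -1.01 (adjusted p = 0.0337), which was lost without any single HS sample, 5-Fu replicate 1 or 3, NS replicate 1 or MN replicate 2, at adjusted p of 0.0549 to 0.118. It was also lost with no filter on low values (0.0603), with only the 2 groups fitted (0.104), under a replicate block (0.0622), and below the fold threshold under quantile normalization (-0.995) and scaling to total reads (-0.90). It was -1.11 (adjusted p = 0.0199) without 5-Fu replicate 2.

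The pathways around the members were followed in 9 lists of related genes, of which 55 genes were tested. The lists were chosen with earlier results of these data known, so counts above the share of all genes can be partly built in. In HS against NS 11 were called higher and 2 lower, against 5.00% of all tested genes called, and the median log2 fold change of the 55 was 0.44. In 5-Fu against HS 6 were called lower and 0 higher, against 2.29% of all tested genes called, with a median of -0.67. All 6 of these calls were lost together without HS replicate 1, 2 or 3, without 5-Fu replicate 1 or 3 and when only the 2 groups were fitted, where 0 of the related genes were called in limma and the medians stayed between -0.67 and -0.57. The count was 1 under a replicate block, 2 with no filter on low values, 2 with samples scaled to the same total of reads and 3 and 4 without NS replicate 1 and MN replicate 2. None was called between MN and HS, where 7 had an unadjusted p under 0.05 in limma and the median was -0.19, or between MN and 5-Fu, where 14 did and the median was 0.46. No share of all tested genes under that unadjusted cut is given, so these 2 counts are not read as an excess. The lists hold 21 calls in all, of which 6 held with every sample left out in turn, namely TCF12, TNMD, KERA, SOX10, LEF1 and CREB3L1 in HS against NS. Of the other 15, MMP13 was lost without HS replicate 1 (adjusted p = 0.0504 in limma) and under limma voom (0.0534) and OSR2 in HS against NS without HS replicate 2 (0.0522), and each of the rest was lost without at least 4 different samples, at adjusted p up to 0.174. In HS against NS the counts were 7 higher and 1 lower without NS replicate 1, 7 higher and 2 lower without HS replicate 3, and 7 higher and 6 lower with samples scaled to the same total of reads. Under that scaling 9 of the 21 calls were lost. In HS against NS these were MEIS1 (0.90), WWTR1 (0.82), TCF4 (0.90) and OSR2 (0.89), all below the fold threshold. In 5-Fu against HS they were MEIS2 (-0.97), WWTR1 (-0.95), BNC2 (-0.95) and TCF4 (-1.08, adjusted p = 0.0539), and in MN against NS KERA (2.06, adjusted p = 0.0513).

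The second 5-Fu sample was left out because of its marker sums, and it is the 1 sample of these 2 groups whose removal did not lose the calls of 5-Fu against HS. With it left out, 12 of 56 related genes tested were called lower in 5-Fu than in HS and 1 higher, against 6.03% of all tested genes called, and the median was -0.80. The 6 called with all samples were among them, with MEIS2 at -1.03 (adjusted p = 0.0193 in limma), WWTR1 at -1.24 (0.0178), TCF12 at -1.44 (0.00960), TCF4 at -1.51 (0.00779), OSR2 at -1.47 (0.00397) and BNC2 at -1.16 (0.0133). The others called lower were the tendon genes KERA, THBS4, TNC and TNMD and the dermal factors CREB3L1 and LEF1, and the gene called higher was MEIS3. That sample had the highest fibroblast sum of its group, and the part of these markers in the larger count was not tested. It was left out after its values were seen, so the larger count does not strengthen these calls.

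Cofactors that homeodomain proteins share were followed next. Of 9 listed relatives and cofactors of TLX1, 7 had a row and 5 were tested, and 1 was called higher in HS than in NS. In that comparison 5.00% of all tested genes were called. MEIS1, a partner that many homeodomain proteins bind with, rose by 1.23 on the log2 scale (adjusted p = 0.0383, limma). MEIS2 was called lower in 5-Fu than in HS, by -1.09 (adjusted p = 0.0258). The paralog TLX3 was at 0 in all 12 samples and TLX2 reached at most 4 reads in a sample.

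The factors that accompany TLX1 in splenic and visceral mesenchyme mostly fell below the filter on low values. Of 8 listed, 7 had a row and 1 was tested, BARX1, with -0.15 in HS against NS (adjusted p = 0.870). NKX2-5 was at 0 in all samples, and TCF21, an early marker of visceral mesenchyme, had a group mean of at most 0.345 FPKM.

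Partners of the RUNX factors and targets of RUNX2 were followed in a pair of lists. Of 5 RUNX partners tested 1 was called in HS against NS, where 5.00% of all tested genes were called. WWTR1 (the co-activator TAZ) was higher by 1.18 (adjusted p = 0.0145, limma), and it was lower in 5-Fu than in HS by -1.08 (adjusted p = 0.0367). Of 8 osteochondral genes tested 1 was called in HS against NS, beside the same share of all genes. MMP13, a collagenase and target of RUNX2, was higher in HS by 4.01 (adjusted p = 0.0128), from 1.00 ± 0.424 to 32.8 ± 12.5 FPKM (SD, n = 3). Its MN samples ran from 0.647 to 24.3. IBSP, a bone matrix protein, ran from 0.317 to 87.1 among the HS samples (adjusted p = 0.435), and BGLAP (osteocalcin) had a log2 difference of -1.62 (adjusted p = 0.115), neither being called. SP7, the factor downstream of RUNX2 in bone, had group means of 0.0690, 0.249, 0.659 and 0.0455 FPKM in NS, HS, MN and 5-Fu. One MN sample reached 1.76, and every NS, HS and 5-Fu sample was at or below 0.346.

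Around TWIST2, 5 genes were tested among the E proteins, with which it pairs, and their inhibitors. TCF12 and TCF4, both E proteins, were called higher in HS than in NS, by 1.43 (adjusted p = 0.00706, limma) and 1.24 (0.0224), and lower in 5-Fu than in HS, by -1.24 (0.0291) and -1.21 (0.0387). In these 2 comparisons 5.00% and 2.29% of all tested genes were called. The calls against HS in the 5-Fu group were lost with no filter on low values, at 0.0513 and 0.0667, and with only the 2 groups fitted, at 0.104 and 0.113. They were also lost under a replicate block, at 0.0561 and 0.0591, and without any single HS sample or 5-Fu replicate 1 or 3. The inhibitors ID1, ID2 and ID3 had differences of -0.98, -0.95 and -0.07 in HS against NS, none called. Of 5 factors of epithelial-mesenchymal transition tested, TCF4 was the 1 called in either comparison. ZEB1 and ZEB2 differed by 0.26 and 0.42 in HS against NS.

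SCX itself had no row by symbol, and the tendon genes known around it were described instead. Of 9 tested 3 were called higher in HS than in NS and 0 lower, against 5.00% of all tested genes called. The median log2 fold change of the 9 was 1.60. TNMD (tenomodulin) rose from 2.55 ± 0.615 to 52.9 ± 3.39 FPKM (SD, n = 3), by 3.94 on the log2 scale (adjusted p = 0.0127, limma). TNC (tenascin C) rose by 3.39 (adjusted p = 0.0184) and KERA (keratocan) by 2.49 (0.00733). KERA was also higher in MN than in NS, by 2.26 (adjusted p = 0.0402). The factors of the list did not pass, with 0.44 for MKX, -0.44 for EGR1 (adjusted p = 0.358) and -1.33 for EGR2 (0.0870). The groups of EGR1 and EGR2 did not overlap, against 33.3% of all tested genes.

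SOX factors set the fate of several cell types of the skin. Of 3 tested 2 were called lower in HS than in NS, against 5.00% of all tested genes called. These were SOX10, by -1.77 (adjusted p = 0.0115, limma), and SOX6, by -1.22 (0.0410). SOX10, the factor of Schwann cells and melanocytes, was also lower in MN than in NS, by -1.74 (adjusted p = 0.0431). It is a member of the Schwann cell list too, whose sums were lower in HS.

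Of 15 dermal fibroblast factors tested 3 were called higher in HS than in NS and 2 lower in 5-Fu than in HS. The shares of all tested genes called were 5.00% and 2.29%. LEF1, the Wnt effector, rose by 1.69 (adjusted p = 0.00212, limma), CREB3L1, a factor of collagen secretion, by 2.35 (0.0102) and OSR2 by 1.24 (0.0127). OSR2 fell in 5-Fu against HS by 1.17 (adjusted p = 0.0315) and BNC2 by 1.08 (0.0267). The median of the list in HS against NS was 0.28.

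**Figure D5:**
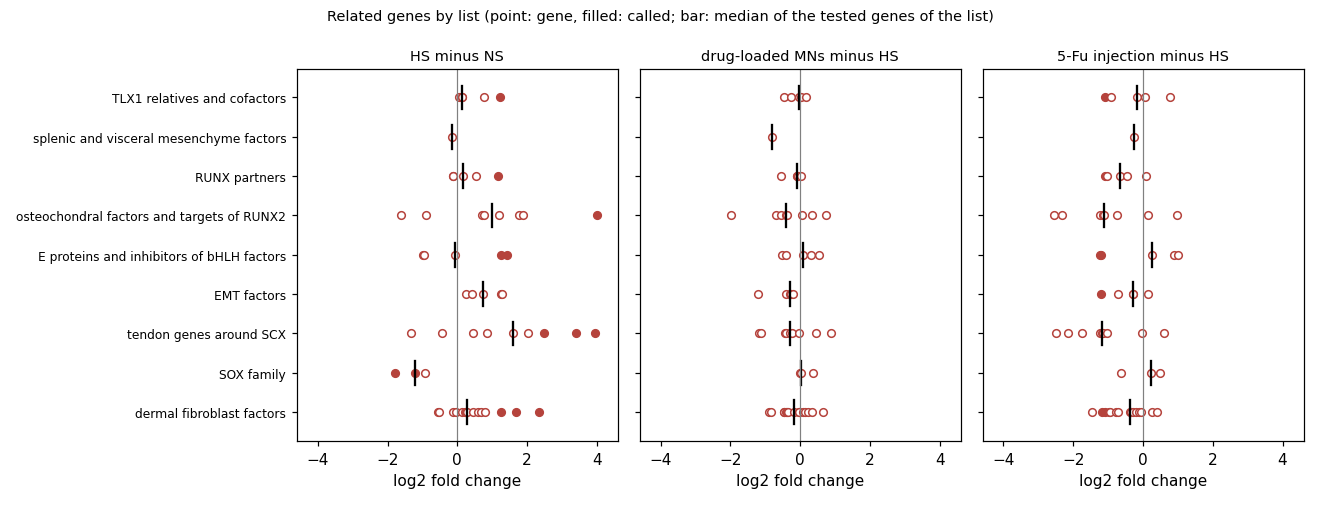
Log2 fold changes (horizontal axis) of 55 tested related genes in 9 lists, in 3 comparisons that share the HS samples. Each point is a gene, filled points were called and bars are list medians. In HS minus NS the tendon list has the highest median, 1.60, and the SOX list the lowest.

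In the comparisons without a call in a list, the gene with the smallest p of each list was examined. For MN against HS these were MEIS2, BARX1, WWTR1, MMP13, TCF12, GSC, EGR2, SOX6 and LEF1, with adjusted p from 0.294 for LEF1 to 0.791 for SOX6 in limma. For 5-Fu against HS they were MSX2 (0.0699), THBS4 (0.0608), SOX10 (0.396) and BARX1 (0.733). For MN against 5-Fu the smallest was 0.246, for YAP1. For MN against NS it was 0.128, for LEF1, and for 5-Fu against NS 0.170, for SOX10.

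SNAI2 and SOX4 had rows without a symbol whose description names the protein. These rows were matched after the table had been seen and are kept out of the counts above. SNAI2 (Slug), a repressor of epithelial genes, had mean FPKM of 31.4 ± 5.81 in NS, 43.7 ± 5.50 in HS, 44.5 ± 11.0 in the MN group and 39.2 ± 12.5 in the 5-Fu group (SD, n = 3). SOX4 had 5.38 ± 0.696, 10.5 ± 5.72, 7.47 ± 1.68 and 5.95 ± 0.953, with the first HS sample at 17.1. In HS against NS SNAI2 differed by 0.47 (adjusted p = 0.288, limma) and SOX4 by 0.75 (0.145), and neither was called in any of the 6 comparisons.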

How the data were processed

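The authors deposited FPKM (fragments scaled to gene length and library size) for 12 samples and 29587 genes, from poly-T purified RNA. The aligner, counter and genome build are not given in the sources used here, nor is use of strand. The authors used DESeq2 for their own comparisons. Multiplied by gene length, 100% of the values fell within 0.1 of a whole multiple of 1 step per sample, which gave the reads. Samples were grouped by their labels, 3 per group. Levels were compared on log2(FPKM + 1) with limma 3.58.1 in R 4.3.3, in 1 model of 4 groups with a mean-variance trend, with Benjamini-Hochberg adjustment over the 13287 genes whose mean FPKM reached 1. The reads entered only limma voom, as an alternative. Members and lists were chosen with earlier results of these data known. All members are named, as are list genes that were called, the smallest p of lists without a call, and the 5 genes most like TLX1 and RUNX2. Genes outside this rule were named after their values were seen. The fit was also run on simulated independent genes with planted changes. That run does not show how the fit handles genes that move together or samples that stand apart. Alternatives covered pseudocount, filter, scaling, voom, samples fitted, trend, threshold, block and each sample left out. No sequence is printed, as no sequence table was used here. The results of 1 listed gene were left out, also from the counts of its list.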

Additional observations from a re-analysis of the deposited data

How the results depend on the processing

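The 36 member results were recomputed under 22 settings, 12 of which left out 1 sample each, and 23 kept their sign and their side of the threshold in all of them or, for TLX1 and RUNX2, which were not tested, moved by less than the spread between replicates. The call of PRRX2 in HS against NS held in each, at adjusted p from 0.00240 to 0.0157. The count of role members called in HS against NS was 4, became 2 with samples scaled to the same total of reads, and ranged from 1 to 4 with 1 sample left out (1 without NS replicate 2, and 2 without HS replicate 1, 2 or 3). In 5-Fu against HS it was 1, and 0 when only the 2 groups were fitted, with a range of 0 to 1. In MN against NS it was 1, and 0 under a replicate block, with a range of 0 to 1. The samples of different groups share only a number, and the mean correlation of same-numbered deviations was -0.19 to 0.12. Among the role members a difference changed sign in 3 cases, and TLX1 in MN against 5-Fu, which was not tested, was -0.03 without MN replicate 3. The value of RUNX1 in MN against 5-Fu was -0.01 without MN replicate 1 and -0.32 without 5-Fu replicate 1, and ranged from -0.32 to 0.37 with 1 sample left out. PRRX2 in MN against HS was 0.058 without HS replicate 1 and ranged from -0.55 to 0.058. TLX1 ranged from -2.03 to -1.66 in HS against NS, from 1.16 to 1.44 in MN against HS and from 1.15 to 1.31 in 5-Fu against HS. Counts over all genes moved more: 665 genes were called in HS against NS and 1059 with scaling to total reads, where the median of all genes moved to -0.33, with 382 without NS replicate 1 and 420 and 438 without HS replicates 1 and 2, 1 in MN against HS and 37 with only these groups fitted, 304 in 5-Fu against HS with 803 without its replicate 2, 16 and 12 without its replicates 1 and 3, 12, 0 and 0 without HS replicates 1, 2 and 3, 158 without NS replicate 1, 169 without MN replicate 2, 585 by adjusted p alone, 99 under the block, 93 with no filter and 0 with only these groups fitted, and 116 in MN against NS with 6 and 0 without NS replicates 1 and 2, 14, 24 and 4 without MN replicates 1, 2 and 3, 69 and 66 without HS replicates 2 and 3, 176 without 5-Fu replicate 2, 51 under no filter and 23 under the block. In 5-Fu against NS 1 gene was called, with 20 and 5 without 5-Fu replicates 1 and 3, 16 without NS replicate 3, 7 without HS replicate 1 and 0 to 4 under the other settings, and in MN against 5-Fu 0, with 12 without 5-Fu replicate 2 and at most 1 under the other settings. The counting error was largest for RUNX2, at 25.8% of the value in the NS sample with 15 reads.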
